A study of Mus musculus with 30 samples.

Results

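The epithelial sodium channel (ENaC) and its aldosterone pathway were followed as 10 genes of the 46078 counted in mouse colon. They are the channel subunits Scnn1a, Scnn1b and Scnn1g, the colonic H,K-ATPase Atp12a, the kinase Sgk1, the mineralocorticoid receptor Nr3c2, the glucocorticoid-inactivating enzyme Hsd11b2, the leucine zipper gene Tsc22d3, the pump regulator Fxyd4 and the ubiquitin ligase Nedd4l. All 10 were found by symbol and gene identifier, and all 10 passed the filter on low counts in each comparison. The genes were picked from this pathway with expression values of these libraries in view. Their differences between groups are therefore given as a description beside the same measure over all genes tested, and the p-values are not independent support.

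In the surface epithelium of the distal colon, sodium enters the cell through ENaC, which is assembled from alpha, beta and gamma subunits, and leaves it through the basolateral Na,K-ATPase. Aldosterone binds the mineralocorticoid receptor in the epithelial cell and increases this uptake. Hsd11b2 inactivates glucocorticoids that would otherwise occupy the receptor, the aldosterone-induced kinase Sgk1 phosphorylates Nedd4l, and Nedd4l in its active form removes ENaC from the membrane. Atp12a exchanges luminal potassium for protons at the apical membrane.

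RNA-seq was done on colon of C57BL/6J mice in 5 groups of 6 libraries. Females and males on control diet (CD F and CD M) and females and males on high-fat diet (HFD F and HFD M) received vehicle, and a further group of males on high-fat diet received 17β-estradiol (HFD+E2 M). The diets lasted 13 weeks, and vehicle or E2 at 0.5 mg/kg was injected 9 times during the last 3 weeks. The females had their ovaries. Bulk RNA was sequenced, so that fewer epithelial cells and less RNA per cell cannot be told apart.

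Library totals ran from 8667177 to 17243712 counts, and the members had from 137 counts (Scnn1g, CD F) to 10712 counts (Atp12a, HFD M) in a library. Of 12 marker genes of colon epithelium, 11 had a group mean of at least 1 TPM (transcript abundance scaled by gene length and library size) in every group, and so did 6 of 6 posterior Hox genes, which mark a distal position. Genes of stratified squamous epithelium, a cell type of the anal canal, stood apart in 6 libraries, namely HFD F replicates 1, 3, 4 and 5 and HFD M replicates 2 and 4. The 16 squamous genes summed to as much as 1596 TPM in HFD F and 590 TPM in HFD M, and to at most 16.1 TPM in any library of CD F, CD M and HFD+E2 M. Where leaving out these libraries ended or made a call of a member by the study's threshold, the value without them is given too.

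Aldosterone and glucocorticoid receptors bind the same DNA element, a palindrome of TGTTCT hexamers with a spacer of 3 bases, and Sgk1 is a textbook target of it. RefSeq promoter windows (GRCm38.p6, 250 bases before a transcript start) were held for 6 of the 10 genes, with 13 windows in all. Scnn1a, Atp12a, Hsd11b2 and Nedd4l were not matched. The palindrome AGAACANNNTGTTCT was found in 1 of these 13 windows, 1 of 6 at alternative Sgk1 starts on the plus strand of chromosome 10, and in 3 of 32851 windows of all genes (0.00913%). That window, chr10:21993640-21993889, is shown because Sgk1 is the member that connects the hormone to the channel, and its capitals mark the TGTTCT and AGAACA hexamers.
Sgk1: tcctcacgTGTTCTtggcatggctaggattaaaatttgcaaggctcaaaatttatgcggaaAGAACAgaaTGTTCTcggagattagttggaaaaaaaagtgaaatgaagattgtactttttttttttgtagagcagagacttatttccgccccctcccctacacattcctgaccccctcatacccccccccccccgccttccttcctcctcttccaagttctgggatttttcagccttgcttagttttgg
The palindrome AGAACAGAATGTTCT lies at chr10:21993701-21993715, 189 to 175 bases before the transcript start. A single hexamer on either strand was held by 4 of the 13 member windows and by 5284 of all windows (16.1%), so its presence sets the members apart little. The E-box CACGTG, a motif of clock factors, was in 1 of the 13 windows, the same Sgk1 window, where it shares bases with the upstream hexamer, and in 1978 of all windows (6.02%). An estrogen response element with the letters GGTCANNNTGACC was in 0 of the 13 windows and in 21 of all windows (0.0639%), which says only that these letters are missing from the windows read. A match is a stretch of letters and not a measured binding site.

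The members differed widely in level. Atp12a was the most abundant, with a median of 142 TPM over the 30 libraries, followed by Nr3c2 (52.9 TPM), Hsd11b2 (49.8 TPM) and Sgk1 (49.1 TPM). Fxyd4 had a median of 25.8 TPM. The 3 channel subunits were close to each other, with medians of 18.5 TPM for Scnn1a, 14.2 TPM for Scnn1b and 13.7 TPM for Scnn1g, near Tsc22d3 (15.0 TPM) and Nedd4l (14.6 TPM).

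The spread over groups was greatest for Scnn1g, whose highest group mean was 2.69 times its lowest. The same ratio was 2.02 for Atp12a, 1.78 for Sgk1, 1.69 for Fxyd4 and 1.66 for Scnn1b, and the other 5 genes lay between 1.18 and 1.31. HFD M had the highest mean of all groups for Scnn1b, Scnn1g, Atp12a, Sgk1, Nr3c2 and Tsc22d3, and the lowest for Hsd11b2. How many of all genes had their highest mean in HFD M was not counted. For Nr3c2, Tsc22d3 and Hsd11b2 the log2 fold changes of HFD M over CD M were within their errors, at 0.06 (SE 0.08), 0.05 (SE 0.17) and −0.11 (SE 0.17). When the 5 groups were put in order of their means, libraries of each group overlapped with those of the next group in the order for each of the 10 genes.

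**Figure D1:**
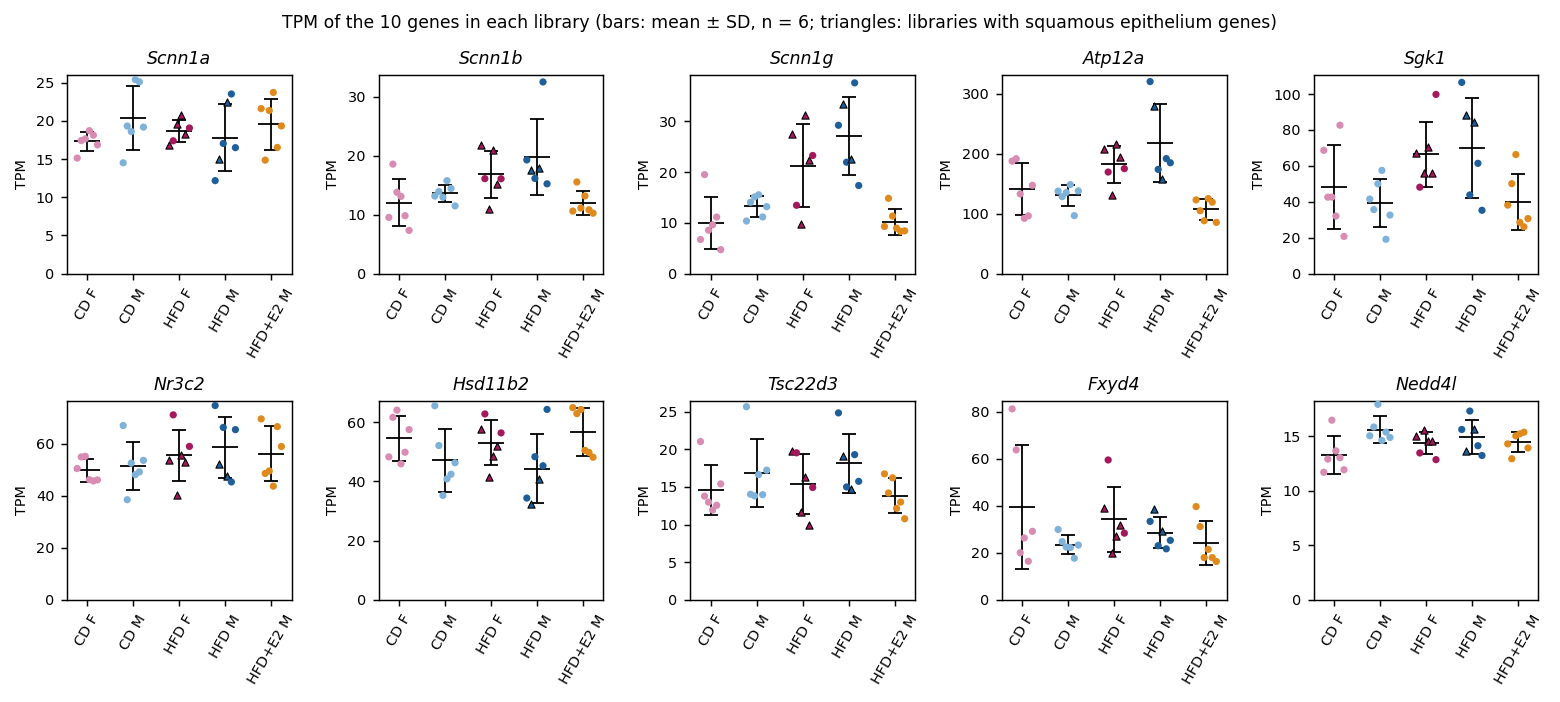
TPM (y axis, from 0) of the 10 genes in each library of the 5 groups (x axis), with a horizontal bar for the mean and whiskers for the SD (n = 6). Triangles are the 6 libraries with squamous epithelium genes. Scnn1g and Atp12a of HFD M lie above CD M and above HFD+E2 M without overlap in TPM, while Scnn1a, Nr3c2 and Nedd4l have similar ranges in the groups. In log2 CPM (counts scaled to library size) Scnn1g of HFD M and HFD+E2 M overlapped.

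The first question was how the channel genes stood after HFD in males. Scnn1g, the gamma subunit, had the largest difference. It ranged from 10.4 through a median of 13.6 to 15.5 TPM in CD M and from 17.3 through 25.9 to 37.6 TPM in HFD M. Every HFD M library was above every CD M library, and the means were 13.2 ± 2.10 and 27.0 ± 7.69 TPM (SD, n = 6). The log2 fold change in edgeR was 1.02 (SE 0.20), with an adjusted p of 0.295, which placed Scnn1g at rank 7 of 14991 genes by p-value. DESeq2 gave an adjusted p of 0.00191.

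Atp12a, which moves potassium rather than sodium, was also higher in HFD M. Its lowest, median and highest levels were 96.5, 136 and 148 TPM in CD M, against 157, 188 and 320 TPM in HFD M. These groups did not overlap either. Atp12a had a log2 fold change of 0.69 (SE 0.14, edgeR adjusted p = 0.295, rank 10 of 14991), and DESeq2 gave an adjusted p of 0.0111.

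The beta subunit Scnn1b ranged from 11.5 through 13.5 to 15.7 TPM in CD M and from 15.2 through 17.7 to 32.5 TPM in HFD M. The ranges overlapped narrowly, and 1 library, HFD M replicate 5, held the value of 32.5 TPM. On the log2 scale the difference was 0.51 (SE 0.21, edgeR adjusted p = 0.820), and it was 0.21 without that library. With each of the 12 libraries left out in turn, an unadjusted p under 0.05 was kept in 8 of 12 fits. Sgk1 ranged from 19.1 through 38.6 to 57.5 TPM in CD M and from 35.2 through 73.0 to 107 TPM in HFD M, with overlap. Its log2 fold change was 0.77 (SE 0.29, edgeR adjusted p = 0.807), or 0.58 (adjusted p = 0.897) without the libraries that held squamous genes, and 11 of 12 fits with 1 library left out kept an unadjusted p under 0.05. The study itself singled out Sgk1 for its response to HFD and E2 in these males, so its values here are no independent evidence of a direction.

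The alpha subunit Scnn1a went with neither of its partners, at 14.5 to 25.4 TPM in CD M and 12.2 to 23.5 TPM in HFD M and a log2 fold change of −0.12 (SE 0.22). Fxyd4, a small membrane protein that modulates the Na,K-ATPase, had a log2 fold change of 0.28 (SE 0.13, edgeR adjusted p = 0.825). The receptor Nr3c2 (0.06, SE 0.08), the enzyme Hsd11b2 (−0.11, SE 0.17), the glucocorticoid-induced Tsc22d3 (0.05, SE 0.17) and Nedd4l (−0.10, SE 0.10) had log2 fold changes that were small beside or close to their errors.

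In this male comparison 0 of the 10 members passed an adjusted p of 0.05 in edgeR, where 0.0% of all genes did, 4 had an unadjusted p under 0.05, against 6.03% of all genes, and DESeq2 called 2 (Scnn1g and Atp12a). By the threshold of the study, an unadjusted p under 0.05 and an absolute log2 fold change above 0.4, 4 members were higher (Scnn1b, Scnn1g, Atp12a and Sgk1) and 0 lower, and 2.9% of all genes tested passed, 1.25% in the higher and 1.64% in the lower direction. Without the squamous libraries the members' count was 3, Sgk1 no longer passing, and it was 3 to 4 with each library left out in turn. The median log2 fold change was 0.17 over the members and −0.01 over all genes. The 2 members without overlap between the groups compare with 0.187% of all genes that were higher in HFD M without overlap in log2 CPM (counts scaled to library size).

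Females on HFD were compared with females on CD next. Scnn1g again had the largest difference of the members. Its lowest, median and highest values were 4.71, 9.07 and 19.5 TPM in CD F and 9.85, 22.8 and 31.2 TPM in HFD F. Here the groups overlapped, since CD F replicate 2 was at 19.5 TPM and HFD F replicates 2 and 3 were at 13.4 and 9.85 TPM. The difference was 0.96 on the log2 scale (SE 0.34, edgeR adjusted p = 0.638), and 0.80 (adjusted p = 0.9998) without the squamous libraries, which leaves 2 libraries in HFD F.

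Scnn1b ranged from 7.32 through 11.4 to 18.6 TPM in CD F and from 11.0 through 16.1 to 21.9 TPM in HFD F. Its log2 fold change was 0.42 (SE 0.19, edgeR adjusted p = 0.865), and 0.36 without the squamous libraries, and 4 of 12 fits with 1 library left out kept an unadjusted p under 0.05. Atp12a had values of 92.0 to 191 TPM in CD F and 131 to 215 TPM in HFD F, with a log2 fold change of 0.32 (SE 0.15, edgeR adjusted p = 0.879). Sgk1 ranged from 20.7 through 42.6 to 82.6 TPM in CD F and from 48.1 through 61.8 to 99.8 TPM in HFD F, so that the groups overlapped over much of their range. Its log2 fold change was 0.41 (SE 0.28, edgeR adjusted p = 0.999), and it moved to 0.26 without HFD F replicate 6, to 0.66 without CD F replicate 5 and to 0.62 with the squamous score as a covariate.

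The remaining members in females had log2 fold changes of 0.17 (Scnn1a, SE 0.15), 0.13 (Nr3c2, SE 0.11), −0.12 (Hsd11b2, SE 0.10), −0.02 (Tsc22d3, SE 0.16), −0.26 (Fxyd4, SE 0.37) and 0.01 (Nedd4l, SE 0.11). Some of these moved with the squamous libraries. Without them Nr3c2 was at 0.31, and at 0.36 with the squamous score as a covariate, both with an unadjusted p under 0.05. Scnn1a was at −0.06, Hsd11b2 at 0.04, Tsc22d3 at 0.16, Fxyd4 at 0.07 and Nedd4l at −0.09 without them, each with the opposite sign. In edgeR 0 members passed the adjusted threshold, against 0.0199% of all genes, 3 had an unadjusted p under 0.05, against 5.68% of all genes, and DESeq2 called 0. By the study's threshold 2 members were higher (Scnn1b and Scnn1g) and 0 lower, where 3.67% of all genes passed 2.95% higher and 0.724% lower, and this count was 0 without the squamous libraries. The median log2 fold change was 0.15 over the members.

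Whether the diet difference itself differed between the sexes was tested with an interaction term on the 24 vehicle libraries. In edgeR 0 members passed the adjusted threshold, where 0.0% of 15800 genes did, 0 had an unadjusted p under 0.05, against 6.75%, and DESeq2 called 0. Atp12a had the smallest p, with a diet difference lower in females by an interaction of −0.38 on the log2 scale (SE 0.22, edgeR adjusted p = 0.749). The interaction was −0.07 for Scnn1g (SE 0.42), −0.10 for Scnn1b (SE 0.31) and −0.37 for Sgk1 (SE 0.43). It was 0.29 for Scnn1a (SE 0.28), 0.07 for Nr3c2 (SE 0.13), −0.02 for Hsd11b2 (SE 0.20), −0.09 for Tsc22d3 (SE 0.26), −0.54 for Fxyd4 (SE 0.41) and 0.11 for Nedd4l (SE 0.14). For Scnn1g the approximate 95% interval of the interaction ran from −0.89 to 0.76, which does not exclude a sex difference nearly as large as the diet difference in males.

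E2 in males on HFD was compared with vehicle in males on HFD, and this comparison shares the HFD M libraries with the male diet comparison, so that a high HFD M value enters both. Atp12a had the smallest p of the members. It ranged from 157 through 188 to 320 TPM in HFD M and from 85.3 through 112 to 125 TPM in HFD+E2 M. Each E2 library was below each vehicle library, with means of 218 ± 65.7 and 107 ± 17.6 TPM (SD, n = 6). The log2 fold change was −0.84 (SE 0.15, edgeR adjusted p = 0.148, rank 3 of 15010), DESeq2 gave an adjusted p of 0.000343, and without the squamous libraries the log2 fold change was −0.84 (edgeR adjusted p = 0.407).

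Scnn1g lay between 17.3 and 37.6 TPM in HFD M and had values of 8.31, 9.11 and 14.8 TPM (lowest, median and highest) in HFD+E2 M. The E2 libraries were all below the vehicle libraries in TPM, whereas in log2 CPM the groups overlapped. The share of all genes without overlap in TPM was not counted. Scnn1g had a log2 fold change of −1.25 (SE 0.25, edgeR adjusted p = 0.389, rank 7 of 15010), DESeq2 gave an adjusted p of 0.000693, and without the squamous libraries it was −1.23 (edgeR adjusted p = 0.837). With the score of colon epithelium genes as a covariate the difference was −1.53, past the adjusted threshold in edgeR. The part of epithelial content in this difference was not tested.

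Scnn1b ranged from 15.2 to 32.5 TPM in HFD M and from 10.2 through 11.0 to 15.5 TPM in HFD+E2 M. Its log2 fold change was −0.55 (SE 0.25, edgeR adjusted p = 0.485), and −0.25 without HFD M replicate 5, and 5 of 12 fits with 1 library left out kept an unadjusted p under 0.05. Sgk1 ranged from 26.0 through 34.4 to 66.3 TPM in HFD+E2 M, within the range of 35.2 to 107 TPM in HFD M for part of the libraries. The log2 fold change of Sgk1 was −0.72 (SE 0.32, edgeR adjusted p = 0.479), or −0.54 (adjusted p = 0.837) without the squamous libraries. An unadjusted p under 0.05 was kept in 4 of 12 fits with 1 library left out, and the reservation about the study's own choice of Sgk1 holds here too.

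Hsd11b2, which protects the mineralocorticoid receptor from glucocorticoids, had the opposite sign. Its lowest, median and highest values were 32.5, 43.2 and 64.4 TPM in HFD M and 48.2, 56.7 and 65.0 TPM in HFD+E2 M. The groups overlapped through the upper HFD M libraries. Hsd11b2 had a log2 fold change of 0.52 (SE 0.17, edgeR adjusted p = 0.455), and 0.40 (adjusted p = 0.837) without the squamous libraries. Scnn1a (0.26, SE 0.20), Nr3c2 (0.12, SE 0.10), Tsc22d3 (−0.09, SE 0.17), Fxyd4 (−0.13, SE 0.21) and Nedd4l (0.09, SE 0.10) had log2 fold changes with p-values of 0.198 or more.

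In edgeR 0 members passed the adjusted threshold after E2, where 0.00666% of all genes did, 5 had an unadjusted p under 0.05, against 10.2% of all genes, and DESeq2 called 2 (Scnn1g and Atp12a). By the study's threshold 4 members were lower (Scnn1b, Scnn1g, Atp12a and Sgk1) and 1 higher (Hsd11b2), where 5.87% of all genes passed, 3.24% lower and 2.63% higher, and the members' count was 3 without the squamous libraries (Scnn1b, Scnn1g and Atp12a). The median log2 fold change of the members was −0.11. Atp12a was the 1 member without overlap in log2 CPM, a pattern that 0.266% of all genes had in the lower direction.

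**Figure D2:**
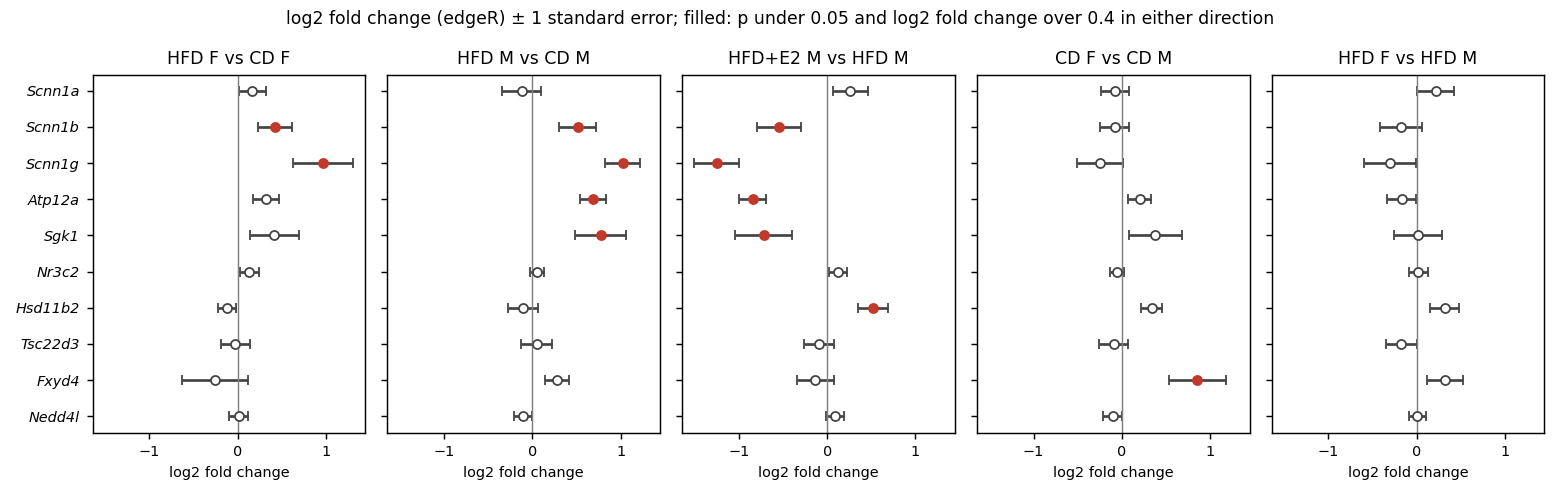
Log2 fold change from edgeR (x axis) of the 10 genes (y axis) in the 5 comparisons, with whiskers of 1 standard error and filled points where p was under 0.05 and the log2 fold change over 0.4 in either direction. Scnn1g, Scnn1b, Atp12a and Sgk1 lie right of 0 in HFD M vs CD M and left of 0 in HFD+E2 M vs HFD M, which share the HFD M libraries, and Scnn1g has the greatest distance from 0 in both, at 1.02 and −1.25.

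The sexes were compared on each diet. On CD, Fxyd4 stood out, with values from 17.7 through 22.9 to 29.96 TPM in CD M and from 16.4 through 27.8 to 81.3 TPM in CD F. CD F replicates 1 and 2, at 81.3 and 63.9 TPM, were far above the other CD F libraries, which lay within or near the range of the males. The log2 fold change of females over males was 0.85 (SE 0.32, edgeR adjusted p = 0.219), and the gene no longer passed the study's threshold without CD F replicate 1, with a log2 fold change of 0.55. An unadjusted p under 0.05 was kept in 10 of 12 fits with 1 library left out. Smooth muscle genes were lower in CD F, with summed levels of 2640 to 4093 TPM against 4149 to 6888 TPM in CD M. With their score as a covariate the Fxyd4 difference was −0.06, and that of Scnn1a went from −0.07 to 0.44. The summed muscle levels did not overlap between the sexes, and the part of muscle content in these differences was not tested.

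Hsd11b2 was at 35.3 to 65.6 TPM in CD M and 46.0 to 64.1 TPM in CD F, with a log2 fold change of 0.34 (SE 0.12, edgeR adjusted p = 0.156). On HFD its log2 fold change of females over males was 0.32 (SE 0.16, edgeR adjusted p = 0.872), and 0.48 with the squamous score as a covariate, where it passed the study's threshold. Fxyd4 was higher in HFD F by 0.32 on the log2 scale (SE 0.20, edgeR adjusted p = 0.872), and by 0.79 without the squamous libraries, which passed the study's threshold with 2 libraries left in HFD F. For the 3 channel subunits the sex difference on CD was −0.07 (Scnn1a, SE 0.16), −0.08 (Scnn1b, SE 0.17) and −0.25 (Scnn1g, SE 0.26), and on HFD it was 0.21 (Scnn1a, SE 0.21), −0.18 (Scnn1b, SE 0.24) and −0.31 (Scnn1g, SE 0.29). Atp12a had sex differences of 0.20 on CD (SE 0.13) and −0.17 on HFD (SE 0.16), and Sgk1 of 0.38 on CD (SE 0.30) and 0.01 on HFD (SE 0.27).

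Nr3c2, Tsc22d3 and Nedd4l had sex differences between −0.17 and 0.02 on the log2 scale on either diet, with p-values of 0.339 or more in edgeR. On CD 0 members passed the adjusted threshold in edgeR, where 2.92% of all genes did, 2 had an unadjusted p under 0.05, against 14.8%, and DESeq2 called 0. The study's threshold was passed by 1 member, Fxyd4, which was higher in females, against 9.15% of all genes, 2.94% of them in that direction. On HFD 0 members passed in edgeR, where 0.0988% of all genes did, 0 had an unadjusted p under 0.05, against 5.09%, and DESeq2 called 0, and the study's threshold was passed by 0 members and 3.09% of all genes.

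The TPM ratio between channel subunits was not the same in all libraries. The ratio of Scnn1g to Scnn1a in TPM, lowest through median to highest, was 0.279, 0.499 and 1.12 in CD F, and 0.444, 0.700 and 0.811 in CD M. It was 0.504, 1.22 and 1.64 in HFD F and 1.01, 1.44 and 2.40 in HFD M. In HFD+E2 M it was 0.377, 0.469 and 0.998. All HFD M libraries lay above all CD M and all HFD+E2 M libraries, and HFD F overlapped with CD F. The margin between HFD M and HFD+E2 M was narrow, at 1.01 against 0.998. The ratio of Scnn1b to Scnn1a had group medians of 0.664 (CD F), 0.658 (CD M), 0.884 (HFD F), 1.06 (HFD M) and 0.542 (HFD+E2 M). These ratios were computed after the genes had been chosen and were not tested, and no ratios of other gene pairs were computed beside them. Within groups Scnn1a had r = 0.65 with the score of smooth muscle genes and Scnn1g had r = 0.16. The part of tissue make-up in the ratios was not tested.

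**Figure D3:**
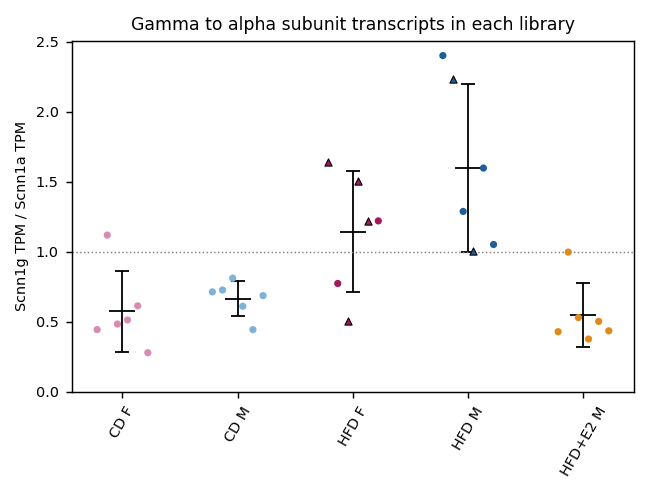
Ratio of Scnn1g to Scnn1a TPM (y axis, from 0) in each library of the 5 groups (x axis), with mean and SD (n = 6) and triangles for libraries with squamous genes. The dotted line marks equal TPM of both subunits. The 6 HFD M libraries run from 1.01 to 2.40, all above the CD M libraries and the HFD+E2 M libraries, the highest of which is at 0.998.

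Covariation within groups does not rest on the group differences. The log2 CPM of each gene was taken as a deviation from its group mean over the 30 libraries, and all 45 pairs of members were correlated, with permutation within groups. Positive correlations were found for 37 of the 45 pairs, and 4 pairs passed an adjusted p of 0.05, 3 positive and 1 negative. The same counts were not made for pairs of other genes, so whether these are more than usual is not known. Scnn1b and Scnn1g were the closest pair, with Pearson r = 0.83 and Spearman rho = 0.79 (permutation p = 1e-05, the smallest that the permutations can give, adjusted p = 0.00045 for r and 0.0018 for rho), and r = 0.82 without the 2 libraries farthest from the median of Scnn1b. These genes are also neighbours on the plus strand of chromosome 7 in GRCm38, Scnn1g at chr7:121734479-121768475 and Scnn1b at chr7:121865111-121918515, 96635 bases apart.

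Scnn1g also went with Sgk1 (r = 0.57, rho = 0.61, permutation p = 0.00201 and 0.00107, adjusted p = 0.039 and 0.0241, r = 0.62 without the 2 farthest libraries). Libraries with more Sgk1 than their group mean tended to have more gamma subunit. For Scnn1b and Sgk1 the correlation was weaker (r = 0.35, permutation p = 0.107, adjusted p = 0.267). Scnn1a, on chromosome 6, had r = 0.52 with Scnn1b (permutation p = 0.00877, adjusted p = 0.0658) and r = 0.37 with Scnn1g (permutation p = 0.0466, adjusted p = 0.174).

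Fxyd4 was in both other pairs that passed. It correlated positively with Tsc22d3 (r = 0.52, rho = 0.50, permutation p = 0.00429 and 0.00954, adjusted p = 0.0483 and 0.0715, r = 0.43 without the 2 farthest libraries) and negatively with Nedd4l (r = −0.59, rho = −0.53, permutation p = 0.0026 and 0.00733, adjusted p = 0.039 and 0.066, r = −0.48 without them). For these pairs the rank correlation did not pass the adjusted threshold. With the score of smooth muscle genes, Fxyd4 had r = −0.46, Tsc22d3 r = −0.69 and Nedd4l r = 0.71. The part of muscle content in these pairs was not tested. On log2 TPM, Fxyd4 and Nedd4l had r = −0.41 (permutation adjusted p = 0.235) and Scnn1g and Sgk1 had r = 0.49 (permutation adjusted p = 0.0852), and without removal of group means Tsc22d3 and Fxyd4 had r = 0.38 (permutation adjusted p = 0.148).

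**Figure D4:**
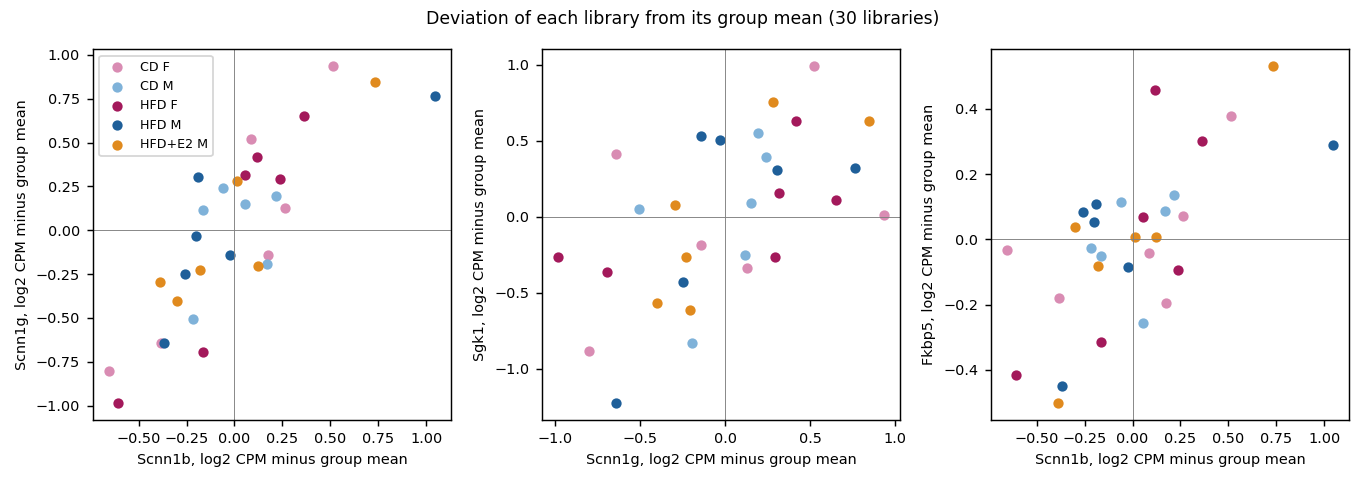
Deviation of each of the 30 libraries from its group mean in log2 CPM, for Scnn1g against Scnn1b, Sgk1 against Scnn1g, and Fkbp5, a glucocorticoid-induced gene, against Scnn1b, coloured by group. The Scnn1b and Scnn1g points lie along a diagonal (r = 0.83) and no CD M library lies near its upper end.

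Colon samples hold muscle and other cells beside the epithelium, and the members were compared with scores of marker genes, again with group means removed over the 30 libraries and as a description. Nedd4l had r = 0.73 with the posterior Hox score and 0.71 with the smooth muscle score, and Scnn1a had 0.72 and 0.65. Tsc22d3 went the other way, with r = −0.56 and −0.69, and so did Fxyd4, with r = −0.37 and −0.46. With the epithelium score r was 0.51 for Scnn1b, 0.51 for Nr3c2, 0.46 for Hsd11b2 and 0.41 for Scnn1g. Nr3c2 and Hsd11b2 had r = −0.55 and −0.45 with the squamous score. Atp12a and Sgk1 stayed within −0.26 to 0.28 for each score. The part of these cell types in the members' values was not tested.

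**Figure D5:**
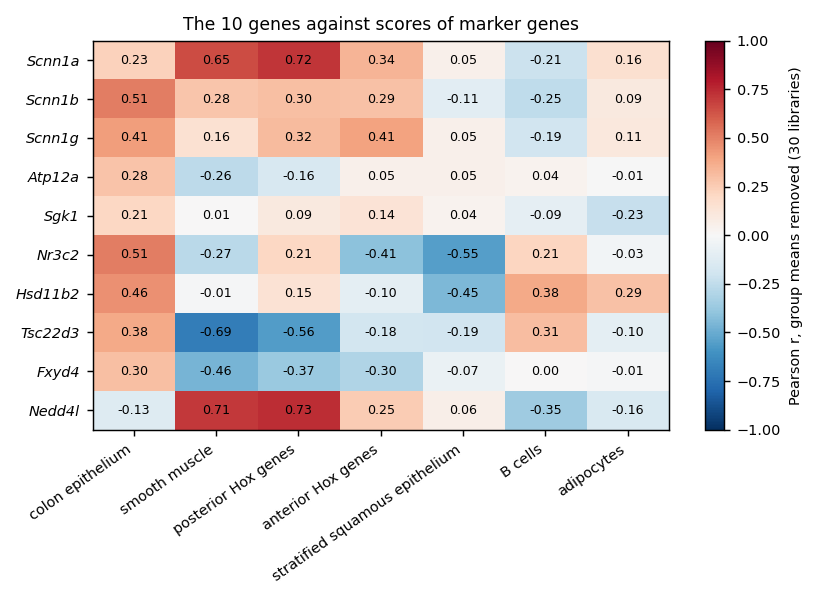
Pearson r (colour and printed value) of the 10 genes (rows) with 7 marker scores (columns) over the 30 libraries after removal of group means. Scnn1a and Nedd4l have r of 0.65 to 0.73 with the smooth muscle and posterior Hox scores, and Atp12a and Sgk1 stay between −0.26 and 0.28.

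The wider pathway was read from 52 genes in 5 lists, of which 51 passed the filter in each comparison, and 0 of them passed the adjusted threshold in edgeR in any of the 5 comparisons. An unadjusted p under 0.05 was found for 6 pathway genes in HFD F vs CD F, 5 in HFD M vs CD M, 5 in HFD+E2 M vs HFD M, 5 in CD F vs CD M and 3 in HFD F vs HFD M, where 5.68%, 6.03%, 10.2%, 14.8% and 5.09% of all genes had one. In the same order 5, 3, 3, 2 and 2 pathway genes passed the study's threshold, where 3.67%, 2.9%, 5.87%, 9.15% and 3.09% of all genes did. Counts of this size are near or below what those shares give for 51 genes, apart from those in HFD F vs CD F and HFD M vs CD M, which are above it by few genes and were not tested. The median log2 fold change of the 51 genes lay between −0.01 and 0.04 in these comparisons, near that of all genes.

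Of 12 genes for ENaC processing and turnover, Usp2, a deubiquitinase that acts on the channel, was higher by the study's threshold after HFD in both sexes, with log2 fold changes of 0.55 in females (SE 0.19, edgeR adjusted p = 0.587) and 0.62 in males (SE 0.22, edgeR adjusted p = 0.731). St14, which encodes the protease matriptase, was higher with E2 by 0.47 (SE 0.14, edgeR adjusted p = 0.454), with 36.4 to 56.5 TPM in HFD M and 49.1 to 70.2 TPM in HFD+E2 M.

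Wnk4, a regulator of sodium and potassium transport, was 1 of 9 genes listed around the upstream kinases of Sgk1 and the WNK kinases. It had log2 fold changes of −0.52 in HFD M vs CD M (SE 0.23, edgeR adjusted p = 0.823), 0.72 in HFD+E2 M vs HFD M (SE 0.26, edgeR adjusted p = 0.461) and 0.56 in HFD F vs HFD M (SE 0.24, edgeR adjusted p = 0.872). All 3 comparisons share the HFD M libraries, in which the gene was at 1.58 to 5.79 TPM.

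Of 14 corticosteroid-induced genes, 3 passed the study's threshold in HFD F vs CD F, where 3.67% of all genes did, namely the clock gene Per1 (log2 fold change 0.64, SE 0.22), Pdk4, a kinase that restrains glucose oxidation (0.50, SE 0.19), and Errfi1, an inhibitor of EGF receptor signalling (−0.67, SE 0.21). Edn1, the precursor of endothelin, was the 1 gene of this list that passed in HFD M vs CD M (−0.81, SE 0.29), and 0 passed with E2. Errfi1 also passed between the sexes, at 0.47 on CD (SE 0.22) and −0.46 on HFD (SE 0.14). On CD it ranged from 26.5 through a median of 34.6 to 78.4 TPM in females and from 20.7 through 35.8 to 39.2 TPM in males. The female median was thus not above the male one, and these CD F libraries also enter HFD F vs CD F. On HFD it was at 22.1 to 34.5 TPM in females and 31.9 to 52.8 TPM in males. Of 8 corticosteroid receptors, chaperones and enzymes, Ptges3, a cochaperone of steroid receptors, passed with E2 (−0.43, SE 0.15), and the glucocorticoid receptor Nr3c1 had log2 fold changes of −0.01 and 0.09 after HFD in females and males and −0.09 with E2. Of 9 pump and potassium channel genes, 8 were tested, and Kcnk5, a potassium channel, passed in CD F vs CD M (0.49, SE 0.15).

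The genes most like 3 of the members were sought among 15442 genes with a mean of at least 1 TPM, by Pearson r of log2 CPM over all 30 libraries. For Scnn1b the closest was Fkbp5 (r = 0.71, rho = 0.79), a chaperone of steroid receptors that glucocorticoids induce, followed by Eps8l3 (r = 0.70), Gm3436 (0.64), Rnf148 (0.62) and Herpud1 (0.61). With group means removed, Fkbp5 had r = 0.67 and Eps8l3 r = 0.71 with Scnn1b, and 1 of these 5 genes, Eps8l3, remained among the 5 closest. Fkbp5 was at 9.78 to 17.8 TPM in CD F, 10.6 to 15.3 TPM in CD M and 11.8 to 19.7 TPM in HFD F. In HFD M it was at 10.6 to 18.7 TPM, and in HFD+E2 M at 8.85 to 13.5 TPM. The log2 fold change of Fkbp5 with E2 was −0.33 (SE 0.15, edgeR adjusted p = 0.485).

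For Atp12a the closest genes were Aadac (r = 0.67), Slc2a13 (0.66), Crot (0.66), Thap6 (0.65) and Yod1 (0.65), and 0 of these 5 were among the 5 closest once group means were removed. For Sgk1 they were 9130409J20Rik (r = 0.73), 3000002C10Rik (0.70), Ndufa3 (0.68), Sf3b6 (0.66) and Rab9 (0.64), of which 4 remained among the 5 closest. Library composition and depth are shared by all genes of a library and enter each of these correlations.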

How the data were processed

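Distal colon RNA of 30 mice was sequenced after removal of ribosomal RNA. The authors trimmed reads with Trim Galore, aligned them with STAR to mm10 (GRCm38), and deposited raw counts per gene from featureCounts and TPM values from StringTie. The strand setting of the counting is not given in the sources used here, and exons of Atp12a, Nr3c2 and Nedd4l overlap an annotated gene on the opposite strand. Groups and replicate numbers came from the sample titles, and nothing was left out. Counts of each library matched its own TPM column best in 30 of 30 libraries, and 0 pairs of libraries were identical.

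The counts were tested with edgeR 4.0.16 in R 4.3.3 (filterByExpr, TMM, robust quasi-likelihood) on the 12 libraries compared, with Benjamini-Hochberg adjustment over all genes tested, and with an interaction term on the 24 vehicle libraries. A call was an adjusted p under 0.05 or, as in the study, an unadjusted p under 0.05 and an absolute log2 fold change above 0.4. log2 CPM used a prior count of 2. Marker scores were mean log2 CPM. Covariation used 100000 permutations within groups. The tests were checked on simulated data. Alternatives were DESeq2 1.42.0, other filters and scalings, limma 3.58.1 on log2 TPM, each library left out, a replicate block and marker scores as covariates. The posterior Hox and B cell covariates and the fit without squamous libraries were chosen after seeing the data. P-values measure the spread between mice.

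The 10 members and the gene lists were chosen with earlier results of these data known. All members were named in each comparison. Pathway genes were named if past the adjusted threshold, otherwise up to 4 with the largest log2 fold change past the study's threshold. Atp1b3, with the smallest difference of 5 such genes in HFD F vs CD F, was therefore not described. For Scnn1b, Atp12a and Sgk1 the 5 most alike genes were named.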

Additional observations from a re-analysis of the deposited data

Results flagged for a closer look

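Scnn1b in HFD M held a library far from the others of its group. HFD M replicate 5 was at 32.5 TPM (log2 CPM 6.18, against 5.11 in the nearest library), and its gap was 0.758 of the range of the group in log2 CPM, above Dixon's critical value for 6 samples. It was the 1 case among 50 sets of 6 values tested (10 genes in 5 groups), and chance gives about 1 in 20.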

How the results depend on the processing

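Of 1700 single values of the members under alternatives, 1575 kept direction and side of the threshold, 116 changed sign without p under 0.05 in either fit, 7 gained a call and 2 reversed, both in CD F vs CD M with the smooth muscle score as a covariate, Scnn1a to 0.44 and Fxyd4 to −0.062. The cause was not tested.

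Members past the adjusted threshold went from 0 to 2 with DESeq2 in HFD M vs CD M and in HFD+E2 M vs HFD M, and to 1 in the latter without the filter on low counts, with the replicate block and with the colon epithelium score as a covariate. Members past the study's threshold in HFD F vs CD F (2) were 1 without the filter, in a fit of all 30 libraries and with the smooth muscle, posterior Hox or B cell score, and 0 with the replicate block, the squamous score or the squamous libraries left out. In HFD+E2 M vs HFD M (5) they were 3 without the filter, with the block, with the squamous or B cell score and without the squamous libraries. In CD F vs CD M (1) they were 2 with the smooth muscle or epithelium score and 0 with the B cell score and in limma on log2(TPM + 0.1), with and without a filter, and log2(TPM + 1). In HFD F vs HFD M (0) they were 1 with the squamous score (Hsd11b2) and 1 without the squamous libraries (Fxyd4). In HFD M vs CD M (4) they were 3 with the posterior Hox score and without the squamous libraries. With each library left out in turn the counts ran from 1 to 2 (HFD F vs CD F), 3 to 4 (HFD M vs CD M), 3 to 5 (HFD+E2 M vs HFD M), 0 to 1 (CD F vs CD M) and 0 to 1 (HFD F vs HFD M).

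The replicate numbers were not taken as pairs, since the labels give them no shared origin and not every same-numbered pair was correlated (r from −0.27 to 0.50). Within each group the replicate numbers rise with a running sample number in the labels, and what that order stands for is not stated. As a hint from the data, 5 of 6 pairs had r over 0.1 in CD F vs CD M and in HFD M vs CD M. In 19 of 60 checks a library correlated best with its own number among the 6 libraries of the other group. The same library enters more than 1 of these checks, so they are not independent. With the block the genes past the adjusted threshold went from 435 to 941 (CD F vs CD M), 3 to 12 (HFD F vs CD F), 0 to 2 (HFD M vs CD M), 1 to 7 (HFD+E2 M vs HFD M) and 15 to 10 (HFD F vs HFD M). With the replicate block the adjusted p of Atp12a for E2 was 0.031 and that of Scnn1g 0.104. Over all genes, DESeq2 called 214 against 3 in edgeR for HFD F vs CD F, 26 against 0 for HFD M vs CD M, 38 against 1 for E2, 774 against 435 for CD F vs CD M, 50 against 15 for HFD F vs HFD M and 7 against 0 for the interaction. Genes past the study's threshold ranged over the alternatives from 361 to 1496, 325 to 1056, 484 to 1982, 863 to 2260 and 337 to 1165 in these 5 comparisons.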
